A study of Homo sapiens with 5 samples.

Results

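TEAD4 binding at the promoters of long non-coding RNA (lncRNA) genes was examined in LX-2 cells, a human hepatic stellate cell line used as a model of myofibroblastic stellate cells. A TEAD4 peak was assigned to a lncRNA promoter when its summit, the base with the highest signal, lay within 1 kb of the transcription start site (TSS) of any lncRNA transcript of GENCODE release 44 (hg38) and more than 1 kb from every protein-coding TSS. Of the 21113 peaks in the deposited list, 729 met this rule (3.45%, Wilson 95% interval 3.21 to 3.71). They were compared with 2717 peaks whose summit lay within 1 kb of a protein-coding TSS and with the remaining 17667 peaks, called distal here.

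The series holds 3 TEAD4 ChIP samples and 2 input samples. All came from LX-2 cells given the solvent DMSO and labelled with no genetic change, so the data hold no treated group and no comparison of conditions. The list combines replicates 1 and 3, while replicate 2 was left out by the authors for its lower concordance. No value per replicate was used here, the sequencing depth is unknown, and every peak therefore has 1 value with no spread between cultures. LX-2 is a single cell line, and its binding sites stand for no other stellate cell. Intervals and tests below cover counting error over peaks or genes, and since neighbouring peaks are not independent, p-values are approximate.

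lncRNAs are transcripts without a known protein product. Many are confined to the nucleus, where some organise nuclear bodies or act on the transcription of nearby genes, and others serve as hosts from which microRNAs or small nucleolar RNAs are processed. TEAD4 belongs to the TEAD family of DNA-binding factors, which recruit YAP1 and TAZ to the DNA and often bind beside AP-1 (FOS/JUN) dimers. YAP1 activity is restrained by Hippo signalling and responds to the stiffness of the surroundings. In stellate cells this pathway is known for its part in myofibroblastic activation.

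The windows below, 100 bp to either side of a summit, are chosen examples from these promoters and not a typical sample. They are written 5′ to 3′ on the plus strand of hg38, and capitals mark the TEAD motif ACATTCC, which reads GGAATGT when it lies on the minus strand, and the AP-1 motif, which is TGACTCA on one strand and TGAGTCA on the other. The first belongs to the strongest peak at a lncRNA promoter (chr12:46494476-46494676), 102 bp upstream of a TSS of ENSG00000257496 and inside an intron of an overlapping lncRNA annotation. The second (chr3:126267401-126267601, intron of the plus-strand gene ENSG00000250934) holds 2 TEAD motifs. The third (chr20:50166146-50166346, outside any annotated lncRNA, with the summit 13 bp upstream of the minus-strand gene LINC01275) holds 1 TEAD motif and 2 AP-1 motifs. The fourth (chr17:45371750-45371950, intron of the minus-strand gene ENSG00000267446) is a CpG-rich promoter with an AP-1 motif and no TEAD motif. Of the 729 members, 422 (57.9%) held neither motif, 24 held both and 13 held 2 or more TEAD motifs.
ENSG00000257496: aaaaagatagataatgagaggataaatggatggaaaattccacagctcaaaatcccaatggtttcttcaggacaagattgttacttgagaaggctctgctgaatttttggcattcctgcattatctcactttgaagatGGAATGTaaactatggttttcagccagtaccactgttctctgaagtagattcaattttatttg
ENSG00000250934: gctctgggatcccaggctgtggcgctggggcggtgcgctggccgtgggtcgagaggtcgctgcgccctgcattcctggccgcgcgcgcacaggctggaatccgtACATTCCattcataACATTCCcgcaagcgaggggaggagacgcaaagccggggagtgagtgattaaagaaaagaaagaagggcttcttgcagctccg
LINC01275: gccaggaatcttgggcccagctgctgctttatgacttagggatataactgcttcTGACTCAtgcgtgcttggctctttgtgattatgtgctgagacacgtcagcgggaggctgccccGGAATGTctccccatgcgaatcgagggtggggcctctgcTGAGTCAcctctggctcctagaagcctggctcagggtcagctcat
ENSG00000267446: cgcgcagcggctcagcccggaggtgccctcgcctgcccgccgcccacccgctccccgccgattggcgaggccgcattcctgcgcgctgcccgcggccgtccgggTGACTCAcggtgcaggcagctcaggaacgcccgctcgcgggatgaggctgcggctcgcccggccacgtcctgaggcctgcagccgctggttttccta

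A further set of windows belongs to named lncRNAs described below. The LINC01013 window (chr6:132132569-132132769, exon, signal value 67.6) has a TEAD motif on the summit itself. The strongest peak of LINC01013 (282.2), not printed, holds neither motif. The strongest peaks of MIR100HG (chr11:122038660-122038860, exon) and LINC00511 (chr17:72339161-72339361, intron) each hold 1 TEAD motif. The promoter windows of NEAT1 (chr11:65422264-65422464, upstream of the gene) and MALAT1 (chr11:65498877-65499077, exon) hold neither motif.
LINC01013: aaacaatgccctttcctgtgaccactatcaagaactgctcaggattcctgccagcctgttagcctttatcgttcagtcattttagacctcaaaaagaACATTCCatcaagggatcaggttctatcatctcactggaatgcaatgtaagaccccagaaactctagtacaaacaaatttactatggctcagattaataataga
MIR100HG: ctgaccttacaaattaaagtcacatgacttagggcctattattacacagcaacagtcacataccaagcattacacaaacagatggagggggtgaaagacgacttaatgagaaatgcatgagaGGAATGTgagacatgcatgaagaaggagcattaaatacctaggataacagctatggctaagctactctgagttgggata
LINC00511: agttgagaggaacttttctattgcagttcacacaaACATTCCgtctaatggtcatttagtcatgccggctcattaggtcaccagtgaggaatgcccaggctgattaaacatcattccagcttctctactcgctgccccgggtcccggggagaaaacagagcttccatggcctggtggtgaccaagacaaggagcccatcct
NEAT1: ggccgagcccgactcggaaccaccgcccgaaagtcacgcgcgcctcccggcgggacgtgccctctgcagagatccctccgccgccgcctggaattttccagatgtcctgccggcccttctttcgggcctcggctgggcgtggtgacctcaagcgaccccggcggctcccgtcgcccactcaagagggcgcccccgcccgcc
MALAT1: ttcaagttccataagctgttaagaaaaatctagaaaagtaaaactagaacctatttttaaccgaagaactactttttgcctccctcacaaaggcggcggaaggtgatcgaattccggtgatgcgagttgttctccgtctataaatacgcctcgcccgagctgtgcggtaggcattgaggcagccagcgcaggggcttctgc

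TEAD4 summits gathered just upstream of lncRNA start sites. Around 33506 lncRNA TSSs that lay more than 6 kb from any protein-coding TSS, the 200 bp upstream of the TSS held 14.1 summits per 1000 TSSs and the 200 bp downstream held 5.76. Between 3 and 5 kb away, the mean was 1.82 per bin of the same width. Transcripts of 1 gene share summits, so the count was repeated with the canonical TSS alone. With 12171 canonical TSSs, the corresponding densities were 10.6, 4.44 and 1.58. Protein-coding TSSs, 146197 over all transcripts, also had their highest density just upstream, with 23.4 summits per 1000 TSSs there, 7.80 just downstream and 2.03 at 3 to 5 kb. Their canonical TSSs were not counted alone, so the levels of the 2 sets are not compared. These densities were not tested.

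Within the 1 kb allowed by the rule, the 729 summits lay a median of 262 bp from the nearest lncRNA TSS, and those at protein-coding promoters a median of 180 bp. Summits within 200 bp of the TSS made up 43.3% of lncRNA-promoter peaks (316 of 729) and 52.4% of protein-coding-promoter peaks. At lncRNA promoters, 411 summits were upstream of the TSS, 316 downstream and 2 on it, and 299 peaks (41.0%) covered the TSS. Upstream summits were 56.4% of those at lncRNA promoters and 63.0% of those at protein-coding promoters. Distance to a TSS set both classes, so these positions are a description with no test.

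At the edge of the rule, the farthest members were 999 bp from LINC01914 (signal value 64.6) and 998 bp from LINC02298 (157.7). The nearest peaks left out were 1003 bp from ENSG00000225000 (45.4) and 1003 bp from ENSG00000286804 (41.7). On the protein-coding side, the closest member was 1007 bp from the TSS of KAZALD1.

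The members were spread over many genes. They had 623 different nearest lncRNA genes, of which 539 had 1 member peak, 69 had 2 and 15 had 3 or more. Of the 729 peaks, 389 (53.4%) were nearest to a lncRNA without a symbol, 169 (23.2%) to a LINC gene and 97 (13.3%) to a lncRNA named after another gene (antisense, divergent, intronic or overlapping transcripts). The summit lay in a lncRNA exon at 206 peaks, in an intron at 279 and outside any lncRNA annotation at 244. For protein-coding genes, 536 summits (73.5%) were intergenic, 173 intronic and 20 exonic, and at 162 peaks the lncRNA was antisense to the protein-coding gene that contained the summit. The nearest protein-coding TSS was a median of 33.2 kb away, and for 175 members (24.0%) it was more than 100 kb away. Several peaks could belong to 1 bound region, since the 729 summits fell in 721 listed intervals, and 666 were the strongest of their region when overlapping peaks were merged.

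Seen from the genes, 15529 lncRNA genes had a TSS more than 1 kb from every protein-coding TSS, and 668 of them (4.30%, 3.99 to 4.63) had a TEAD4 summit within 1 kb of such a TSS. Among protein-coding genes, 2466 of 20033 (12.3%) had a summit within 1 kb. That share used every protein-coding TSS and was not repeated with the canonical TSS alone, so the levels are not compared. The lncRNA share moved with the number of annotated start sites. It was 3.18% of 10576 genes with 1 such TSS, 4.53% of 3264 genes with 2 to 4, 9.43% of 1050 genes with 5 to 9 and 13.3% of 639 genes with 10 or more. Taking only the canonical TSS of each gene, 553 of 16053 lncRNA genes (3.44%) had a summit.

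Peaks at lncRNA promoters carried the TEAD and AP-1 motifs more often than the sequence beside them, though for AP-1 this did not pass the test in the 89 CpG-rich members, those whose sequence 500 bp to either side of the summit had an observed to expected CpG ratio above 0.6 and a GC content above 50%. Both strands were read for each motif, in the 201 bp around a summit and in equally wide windows 2 kb away on each side (flanks). The TEAD motif ACATTCC was present at 157 of 729 summits (21.5%, 18.7 to 24.7) and in 3.09% of 1458 flank windows (odds ratio 8.62, 95% interval 6.10 to 12.2, adjusted exact p = 1.64e-41 by the two-sided test of Fisher, as for all exact p-values below). The AP-1 motif was present at 174 summits (23.9%, 20.9 to 27.1) and in 3.50% of flank windows (odds ratio 8.65, 6.24 to 12, adjusted exact p = 1.36e-45). In CpG-rich members alone, TEAD was at 15.7% against 4.49% of flanks (odds ratio 3.97, 1.60 to 9.86, adjusted exact p = 0.010) and AP-1 at 6.74% against 3.37% (odds ratio 2.07, 0.649 to 6.62, adjusted exact p = 0.354). Adjustment was by Benjamini-Hochberg over 9 motifs in each comparison. Each peak had its own flanks, and the tests against flanks did not use this pairing, so their p-values are approximate. Only 24 peaks held both motifs, 133 held TEAD alone, 150 held AP-1 alone and 422 (57.9%) held neither of these exact letters.

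Over all members, the other motifs had lower odds ratios against the flanks. The ETS motif CCGGAA, read by the ETS family, was at 8.64% of summits and 1.92% of flanks (odds ratio 4.83, adjusted exact p = 3.78e-12). The GC box GGGCGG, bound by SP and KLF factors, was at 14.7% and 5.42% (odds ratio 3.0, adjusted exact p = 3.78e-12). In CpG-rich members the odds ratios were 15.8 for ETS (4.54 to 55.2, adjusted exact p = 5.66e-07) and 14.9 for the GC box (7.37 to 30.0, adjusted exact p = 5.87e-16), against 3.71 and 1.87 in CpG-poor members. Both words contain a CpG, and members were classed by the sequence around the summit, not by that of the flanks. The class itself can therefore raise both words at summits over flanks, and no change of order is read from these values. The RUNX motif TGTGGTT was at 7.13% and 3.98% (odds ratio 1.85, adjusted exact p = 0.0044), and the E-box CAGATG of basic helix-loop-helix factors at 16.3% and 12.6% (odds ratio 1.35, adjusted exact p = 0.032). The E-box call was lost in 5 of 14 alternatives, among them flanks at 1000 bp (odds ratio 1.23, adjusted exact p = 0.142), and the RUNX call in 3 of 14. For the CCAAT box (CCAAT, odds ratio 0.915), the cAMP response element TGACGTCA (7 summits, odds ratio 2.82) and the control word CCTTACA (odds ratio 1.26), the difference from the flanks did not pass the test, with adjusted p of 0.457, 0.154 and 0.457.

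The TEAD motif sat at the summit more closely than the AP-1 motif. Of the 157 peaks with a TEAD motif, 144 (91.7%) had it within 50 bp of the summit and 96 (61.1%) within 20 bp, with a median distance of 15.0 bp. Of the 174 peaks with an AP-1 motif, 130 (74.7%) had it within 50 bp and 64 (36.8%) within 20 bp, with a median of 26.5 bp. This contrast was described and not tested. The TEAD motif had no preferred strand relative to the lncRNA in this count, with 82 of 157 on the strand of the lncRNA (52.2%, 44.5 to 59.9).

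The TEAD motif share at lncRNA promoters did not differ from that in the other classes beyond counting error. It was 21.9% at protein-coding promoters (odds ratio for lncRNA promoters 0.981, 0.804 to 1.20, adjusted exact p = 0.88) and 23.2% at distal peaks (odds ratio 0.909, 0.759 to 1.09, adjusted exact p = 0.365). With GC content and log2 signal value as covariates in a logistic model (n = 21113 peaks), the odds ratios were 0.945 (0.771 to 1.16, adjusted p = 0.585) and 0.851 (0.709 to 1.02, adjusted p = 0.172). Members outside and inside protein-coding genes had the motif at 20.7% and 23.8% (odds ratio 0.835, 0.564 to 1.23, exact p = 0.36). The shorter word CATTCC, tried after windows of strong peaks without ACATTCC had been seen to hold it, was at 317 of 729 summits (43.5%) and 10.1% of flanks (odds ratio 6.86, adjusted exact p = 4.67e-68). It was at 46.9% of distal peaks (odds ratio 0.871, adjusted exact p = 0.104), and with the covariates this difference passed the test (n = 21113 peaks, odds ratio 0.75, 0.642 to 0.875, adjusted p = 5.19e-04).

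AP-1, E-box, GC box and ETS motifs differed in frequency between lncRNA and protein-coding promoters over all peaks, but none of these 4 passed the test within CpG-poor or CpG-rich sequence alone. AP-1 was more frequent at lncRNA promoters (23.9% against 13.7%, odds ratio 1.97, 1.61 to 2.41, adjusted exact p = 7.83e-10), and so was the E-box (16.3% against 11.4%, odds ratio 1.52, adjusted exact p = 0.0011). The size of the AP-1 odds ratio moved with the choice of promoters, to 4.29 with 1 TSS per gene, 3.13 with GENCODE basic transcripts and 3.37 outside protein-coding genes, and it was 1.20 in CpG-poor (adjusted exact p = 0.429) and 2.25 in CpG-rich sequence (adjusted exact p = 0.259). The GC box was less frequent (14.7% against 34.9%, odds ratio 0.322, 0.258 to 0.401, adjusted exact p = 2.43e-27), as was the ETS motif (8.64% against 17.9%, odds ratio 0.435, 0.330 to 0.574, adjusted exact p = 7.83e-10). The RUNX motif and the control word, at 7.13% against 5.19% and 2.74% against 1.55%, each had an adjusted p of 0.0691. RUNX passed the test in 5 of 12 alternatives, with an odds ratio of 2.26 for 1 TSS per gene (adjusted exact p = 6.3e-04), and the control word in 1 of 12 (2.31 with GENCODE basic transcripts, adjusted exact p = 0.012). Against distal peaks the order turned. The GC box (4.27% of distal peaks, odds ratio 3.86, 3.10 to 4.80, adjusted exact p = 1.10e-25), the ETS motif (3.71%, odds ratio 2.46, adjusted exact p = 1.57e-08) and the cAMP response element (0.232%, 7 summits against 41, odds ratio 4.17, 1.86 to 9.32, adjusted exact p = 0.0080, a call lost in 5 of 12 alternatives) were more frequent at lncRNA promoters, and RUNX was less frequent (10.3% of distal peaks, odds ratio 0.669, 0.502 to 0.890, adjusted exact p = 0.011, a call kept in 6 of 12 alternatives). For AP-1 against distal peaks (27.3%) the odds ratio was 0.837 (0.703 to 0.995, adjusted exact p = 0.082).

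CpG content differed strongly between the classes. CpG-rich sequence, as defined above, lay at 89 lncRNA-promoter peaks (12.2%, 10.0 to 14.8), 46.2% of protein-coding-promoter peaks (odds ratio 0.162, 0.128 to 0.205, adjusted exact p = 3.60e-70) and 0.730% of distal peaks (odds ratio 18.9, 14.3 to 25, adjusted exact p = 4.63e-67). Against protein-coding promoters the odds ratio was 0.0825 with 1 TSS per gene, 0.0933 with GENCODE basic transcripts and 0.0776 outside protein-coding genes. CpG-rich members included the promoters of NEAT1 (signal value 195.4), the scaffold RNA of paraspeckles, and NORAD (46.2), a cytoplasmic RNA that binds Pumilio proteins. Among members, the CpG-rich peaks held the GC box at 53.9% against 9.22% of CpG-poor peaks (odds ratio 11.5, 7.02 to 18.9, adjusted exact p = 1.10e-20) and the ETS motif at 21.3% against 6.88% (odds ratio 3.68, adjusted exact p = 1.21e-04). Both words contain a CpG, so the class definition itself favours them in CpG-rich peaks, and nothing further is read from these differences. The CpG-rich peaks held AP-1 at 6.74% against 26.3% (odds ratio 0.203, 0.0871 to 0.474, adjusted exact p = 5.16e-05). For TEAD the shares were 15.7% and 22.3% (odds ratio 0.649, 0.356 to 1.18, adjusted exact p = 0.199), and with a limit of 500 bp from the TSS the odds ratio was 0.454 and passed the test (0.233 to 0.884, adjusted exact p = 0.020). A signal value above the median of the list was found for 41.6% of CpG-rich and 55.9% of CpG-poor members (odds ratio 0.560, 0.358 to 0.879, adjusted exact p = 0.020), a call lost among peaks with the top score for reproducibility (odds ratio 0.619, adjusted exact p = 0.15). RUNX was at 1.12% of CpG-rich (1 peak) and 7.97% of CpG-poor members (odds ratio 0.131, 0.0179 to 0.962, adjusted exact p = 0.020), a call lost in 2 of 4 alternatives. These comparisons within the members, over 7 measures, were added after the first results were seen. The control word was not among the measures and was at 3.37% of CpG-rich and 2.66% of CpG-poor members. The part of base composition in the AP-1, TEAD and RUNX differences was not tested.

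The 4 motifs that differed from protein-coding promoters over all peaks lost their calls when the peaks were split by CpG content. Among CpG-poor peaks, AP-1 was at 26.3% of 640 lncRNA-promoter peaks and 22.8% of 1463 protein-coding-promoter peaks (odds ratio 1.20), the GC box at 9.22% and 13.2% (odds ratio 0.668, adjusted exact p = 0.0947), and the ETS motif at 6.88% and 7.31% (odds ratio 0.936, adjusted exact p = 0.868). Among CpG-rich peaks, the GC box was at 53.9% of 89 and 60.1% of 1254 (odds ratio 0.776, adjusted exact p = 0.476), and AP-1 was at 6.74% and 3.11% (odds ratio 2.25, 0.927 to 5.47). The ETS motif was at 21.3% and 30.1% there (odds ratio 0.629, 0.374 to 1.06, adjusted exact p = 0.259). For the E-box the odds ratio was 1.11 in CpG-poor (adjusted exact p = 0.762) and 1.34 in CpG-rich sequence (adjusted exact p = 0.732). The CCAAT box, with no call over all peaks, was less frequent among CpG-rich lncRNA-promoter peaks, at 11.2% against 25.7% (odds ratio 0.366, 0.187 to 0.716, adjusted exact p = 0.0127). Of the motif calls against distal peaks, those of the GC box and ETS were kept in CpG-poor sequence, where the GC box was at 9.22% of lncRNA-promoter and 3.85% of distal peaks (odds ratio 2.53, adjusted exact p = 3.50e-08) and the ETS motif at 6.88% and 3.58% (odds ratio 1.99, adjusted exact p = 4.40e-04). Those of RUNX (odds ratio 0.751, adjusted exact p = 0.122) and the cAMP response element (odds ratio 3.36, adjusted exact p = 0.067) were lost there. In CpG-rich sequence the odds ratios against 129 distal peaks were 0.765 (0.443 to 1.32) for the GC box and 0.979 (0.507 to 1.89) for ETS, and neither passed the test. This split by CpG content was also added after the data had been seen.

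TEAD4 peaks at lncRNA promoters had higher signal values than those at protein-coding promoters. Their signal values, the peak caller's enrichment score with no stated unit and no replicate spread, ran from 6.57 to 860 with a median of 74.3, against medians of 59.9 at protein-coding promoters and 69.2 at distal peaks. Values above the median of the whole list (68.1) were found for 395 of 729 members (54.2%) and 42.8% of protein-coding-promoter peaks (odds ratio 1.58, 1.34 to 1.87, adjusted exact p = 9.57e-08), and for 50.9% of distal peaks (odds ratio 1.14, 0.982 to 1.32, adjusted exact p = 0.089). In CpG-poor sequence alone, the share was 55.9% against 49.4% at protein-coding promoters (odds ratio 1.30, adjusted exact p = 0.012) and 51.0% at distal peaks (odds ratio 1.22, adjusted exact p = 0.014). In CpG-rich sequence it was 41.6% against 35.0% (odds ratio 1.32, 0.853 to 2.05, adjusted exact p = 0.419) and 42.6% (odds ratio 0.957, 0.554 to 1.65, adjusted exact p = 0.89), with no call. The top score for reproducibility between replicates was given to 578 members (79.3%), 71.2% of protein-coding-promoter peaks and 76.7% of distal peaks. A q-value above 0.05 stood beside 27 of 729 members, 77 of 2717 protein-coding-promoter peaks and 570 of 17667 distal peaks, all kept in the list by the authors' selection. Another peak within 5 kb was present for 27.6% of members and 22.6% of protein-coding-promoter peaks (odds ratio 1.31, 1.09 to 1.57, adjusted exact p = 0.010), and for 25.6% of distal peaks (odds ratio 1.11, 0.937 to 1.31, adjusted exact p = 0.243). The former call was lost in 4 of 9 alternatives, among them merging overlapping peaks (odds ratio 1.25, adjusted exact p = 0.054).

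Stronger peaks held the TEAD motif more often. With the members in 5 equal groups by signal value, the motif was at 12.3% of 146 summits in the lowest group (6.57 to 44.2) and in the highest (140.2 to 860) at 36.3% (28.9 to 44.4). Across the median of the list, 107 of 395 stronger members had the motif (27.1%) against 50 of 334 weaker ones (15.0%), an odds ratio of 2.11 (1.45 to 3.07, adjusted exact p = 3.38e-04). The AP-1 motif was at 25.3% and 22.2% (odds ratio 1.19, 0.845 to 1.68, adjusted exact p = 0.423). The RUNX, GC box and ETS motifs did not pass the test in this comparison, over 5 motifs that were chosen after the data had been seen. Among peaks with the top reproducibility score RUNX did pass (odds ratio 3.36, 1.29 to 8.74, adjusted exact p = 0.018, against 1.51 over all members). Summits within 200 bp of the TSS and farther ones had values above the list median at 52.5% and 55.4% (odds ratio 0.889, 0.663 to 1.19, adjusted exact p = 0.68).

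Of the 12 strongest members, 7 were at lncRNAs without a symbol (58.3%), close to the 53.4% over all members. The highest signal value, 859.9, belonged to the summit 102 bp upstream of ENSG00000257496 (chromosome 12, minus strand) and was rank 3 of the whole list. The nearest protein-coding TSS, that of the amino acid transporter gene SLC38A2, was 121.8 kb away. ENSG00000287302 followed with 631.7, 440 bp inside the gene and 2.3 kb from the TSS of ZNF367, with the TEAD motif 1 bp from the summit. ENSG00000232939 had 606.5, with its summit in an intron of PALM2AKAP2, an anchoring protein of protein kinase A, on the opposite strand.

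ARHGEF17-AS1, antisense to ARHGEF17, had a value of 559.1 in CpG-rich sequence 53 bp from its TSS. Its summit also fell in an exon of ARHGEF17, 1032 bp from the TSS of that gene. ENSG00000267446 had 527.2 and is the CpG-rich AP-1 window printed above. LINC02977 had 506.2 with a TEAD motif on its summit. ENSG00000250934, with its pair of TEAD motifs, had 483.8, and LINC01275 had 475.2. LINC01186 on the X chromosome (472.6), ENSG00000272473 (471.5), LINC01730 (468.3) and ENSG00000290479 (462.3) complete the 12 strongest. Of these 12 peaks, 7 held ACATTCC (21.5% over all members), 10 held CATTCC (43.5%), 2 held AP-1 (23.9%), and 7 covered the TSS (41.0%). Since CATTCC was tried after windows of strong peaks had been seen to hold it, its count here restates that observation. The 5 strongest with ACATTCC were ENSG00000257496, ENSG00000287302, LINC02977, ENSG00000250934 and LINC01275. In the whole list, 4 of the 100 and 28 of the 500 strongest peaks were at lncRNA promoters (4.0%, 1.57 to 9.84, and 5.6%, 3.90 to 7.97), beside 3.45% of all peaks.

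Among the 15 lncRNA genes with 3 or more member peaks, there were 52 peaks together, of which 24 held CATTCC, 10 held ACATTCC and 12 held AP-1, shares close to those over all members (43.5%, 21.5% and 23.9%). Peaks of some genes spread over several start sites and others bunched at 1 site. ENSG00000257496 had 5 peaks in 2 regions 108.2 kb apart, with 859.9, 42.1 and 36.3 in 1 interval at one end and 103.4 and 19.8 at the other. LINC00511, a lncRNA reported in many tumours, had 5 separate peaks over 263.5 kb, with values of 157.5, 105.4, 79.6, 51.1 and 35.1. Of these, 2 held ACATTCC and 4 held CATTCC. It has 84 annotated start sites, MIR100HG has 87 and LINC01013 has 76, whereas ENSG00000257496 has 2.

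The annotated span of LINC01013 (268.1 kb) takes in CCN2, a matricellular growth factor gene on the opposite strand and a known YAP1/TEAD target. The LINC01013 peaks had values of 282.2, 67.6, 54.7 and 9.6, and 3 of these 4 were the strongest of their region when overlapping peaks were merged. The peak of 54.7, with a TEAD motif, lay in an intron of CCN2 1.6 kb from the CCN2 TSS. The strongest lay 133.6 kb from that TSS and held neither ACATTCC nor AP-1. The weakest had a −log10 q-value of 0.347, which is not below a q-value of 0.05. ITGB1-DT, the divergent transcript of the integrin beta 1 gene, had 4 peaks (175.2, 106.8, 32.1 and 17.9) within 2.7 kb and 9.0 to 11.7 kb from the ITGB1 TSS. After merging of overlapping peaks, 3 of these 4 were the strongest of their region. None of the 4 held ACATTCC or AP-1, and 2 held CATTCC.

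FRMD6-AS2 is antisense to FRMD6, a FERM-domain gene placed upstream of Hippo signalling. It had values of 262.8, 148.4 and 46.2, the stronger pair with summits in 1 listed interval, and none held CATTCC. USP2-AS1 had 40.3, 37.0 and 8.2, with the strongest 7.8 kb from the TSS of the fibroblast surface marker THY1. The other genes with 3 peaks were ENSG00000257429 (highest value 268.6), ENSG00000204876 (237.7), LINC02104 (203.8), LINC00840 (147.6), LINC00649 (84.4), ENSG00000285517 (79.8), ENSG00000289518 (62.7) and MIRLET7A1HG (43.4).

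Of 80 microRNA host genes with an eligible TSS, 13 had a summit within 1 kb (16.3%, 9.75 to 25.8), beside 4.30% of all lncRNA genes tested. These lists were described and not tested. MIR100HG, whose transcript hosts a microRNA cluster with a let-7 member, had 4 peaks of 267.8, 98.4, 95.1 and 44.1, the strongest with a TEAD motif and 2 of them in 1 interval. MIR130AHG had a value of 189.0 in CpG-rich sequence, 9 bp from its TSS. MIR365BHG had 120.5 and MIR3681HG had 107.7 and 88.8.

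Host genes of let-7 microRNAs, which repress growth-promoting transcripts, were among them. MIRLET7IHG had 100.8 with a TEAD motif, MIRLET7BHG had 92.4, and MIRLET7A1HG had 43.4, 9.4 and 7.2 in CpG-rich sequence. The last pair of values had −log10 q-values of 0.306 and 0.112. LINC-PINT, a p53-induced lncRNA, had 94.7, 69.2 and 46.7, the last at a summit nearer to the TSS of another lncRNA. MIR1915HG (82.6), MIR3142HG (80.4), MIR4458HG (67.4), MIR99AHG (50.5 and 28.2) and MIR4280HG (44.8) make up the rest. DNM3OS and CARMN, host genes known from fibroblasts and smooth muscle, had no summit within 1 kb.

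Host genes of snoRNAs carry the guides for ribosomal RNA modification in their introns. Of 25 eligible ones, 4 had a summit (16.0%, 6.40 to 34.7), beside 4.30% of all lncRNA genes tested. They were SNHG16 (136.1, with a TEAD motif 873 bp inside the gene), SNHG29 (81.4), SNHG25 (66.6) and SNHG12 (37.0), and all but SNHG16 were CpG-rich. GAS5 and ZFAS1 had none. Of 16 lncRNAs known from fibrosis or growth control, 5 had a summit (31.3%, 14.2 to 55.6), beside the same 4.30%. NEAT1 had 195.4, 410 bp upstream of its TSS. MALAT1, an abundant RNA of nuclear speckles, had 93.0 at 61 bp and 46.4 at 19 bp upstream of its start sites, and neither held CATTCC. LINC00511 (above), PVT1 (62.6) and NORAD (46.2) were the others. H19, MEG3, HOTAIR, MIAT and CYTOR were among the 11 without a summit.

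Of 19 antisense, divergent, intronic or overlapping lncRNAs named after Hippo, matrix, adhesion and growth factor genes, 10 had an eligible TSS and none of these 10 had a summit. This list was put together by symbol and is not complete, since ITGB1-DT and FRMD6-AS2, with 4 and 3 peaks, are not on it, so its count does not describe lncRNAs beside such genes in general. The other 9, WWTR1-AS1 and TGFB2-AS1 among them, start within 1 kb of a protein-coding TSS. By the rule, a peak there counts as a protein-coding-promoter peak when its summit lies within 1 kb of a protein-coding TSS. The first 3 lists held genes with many start sites. The median number of eligible TSSs was 5 for microRNA hosts, 5 for snoRNA hosts and 10 for the lncRNAs known from fibrosis or growth control, against 1 over all lncRNA genes. With the canonical TSS alone, the shares were 12.7% (10 of 79), 15.0% (3 of 20), 20% (3 of 15) and 8.33% (1 of 12), beside 3.44% of all lncRNA genes.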

How the data were processed

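TEAD4 ChIP-seq was made from LX-2 cells. Chromap was used by the authors to align reads to hg38, and they ran the ENCODE pipeline for the irreproducible discovery rate (IDR) on replicates 1 and 3, which they found concordant. The deposited list has 10 columns. Per the layout, the authors' score is the scaled IDR (its lowest value stands for an IDR of 0.01), and the deposited signal value and −log10 q-value are those of their peak caller, which is not given in the sources used here. The other deposited columns used were the start, the end and the summit offset of each peak. No values per sample were used, so depth and replicate spread are unknown, and Wilson 95% intervals cover counting error only.

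TSSs came from GENCODE release 44 and sequence from a hg38 reference, inside whose chromosomes all 21113 peaks end. Distances ran from the summit. Differences between shares were tested with Fisher's exact test (two-sided), with Woolf intervals and Benjamini-Hochberg adjustment (threshold 0.05), and covariates entered a logistic model. The steps were tested on simulated data. A symbol list took microRNA hosts, snoRNA hosts, lncRNAs known from fibrosis or growth control, and lncRNAs named after Hippo, matrix, adhesion and growth factor genes. Named peaks were the 12 with the highest signal value, the 5 highest with a TEAD motif, genes with 3 or more peaks, listed genes and the 2 nearest the 1 kb limit on either side. The members, lists and rule were chosen with earlier results of these data known. Alternatives changed the peak set, the distance, the TSSs, the motif window and letters, the flanks and the sequence class. Python 3.11.15 was used with scipy 1.17.1, pysam 0.24.0, numpy 2.4.6, statsmodels 0.14.6, matplotlib 3.10.9 and pandas 2.3.3.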

Additional observations from a re-analysis of the deposited data

How the results depend on the processing

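No paired analysis was possible because values per sample are not used here, which also means that leaving out single replicates could not be tried. The share of summits in masked repeats was not run, since the reference used here marks none. Of 501 alternatives over 57 results, 401 kept direction and side of the threshold, 35 lost a call, 21 gained one, 32 turned direction and 12 moved a share. For the results listed here the cause was not tested. The TEAD and AP-1 enrichment over flanks ranged from 3.97 to 16.6 and from 2.07 to 13.5, with the AP-1 call lost in CpG-rich sequence (odds ratio 2.07, adjusted exact p = 0.354). Over flanks, ETS ranged from 3.53 to 15.8 and the GC box from 1.87 to 14.9, each highest in CpG-rich members, a class set by the summit sequence. CpG-rich shares kept their calls in all alternatives run, with odds ratios of 0.0776 to 0.183 against protein-coding promoters (0.162 as reported). The GC box was at 0.20 outside protein-coding genes (0.322 as reported).

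The share of peaks at lncRNA promoters (3.45%) was 2.81% with 1 TSS per gene, 3.08% with GENCODE basic transcripts, 4.96% at 2 kb, 2.54% at 500 bp, 3.74% above the median signal value and 5.49% outside protein-coding genes. The share of lncRNA genes with a peak (4.30%) was 3.44%, 3.79%, 6.22%, 3.05% and 2.54% under the first 5 of these settings and 3.57% with the top IDR score.

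The odds ratio of the TEAD motif against protein-coding promoters (0.981) was 1.12 with 1 TSS per gene, 1.06 with basic transcripts, 1.04 at 2 kb, 1.06 in 200 bp windows and 1.01 after merging overlapping peaks. With covariates (0.945) it was 1.07 with 1 TSS per gene, 1.02 with basic transcripts and 1.00 outside protein-coding genes. Against distal peaks it was 1.01 at 2 kb, and 0.75 with covariates and CATTCC. Between intergenic and genic members (0.835) it was 1.03 with CATTCC, 1.00 at 2 kb and 1.01 at 500 bp. None of these but the CATTCC value against distal peaks passed the test.

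The AP-1 odds ratio against protein-coding promoters was 1.20 in CpG-poor and 2.25 in CpG-rich sequence, neither a call, and against distal peaks 0.784 at 500 bp (adjusted exact p = 0.037). In CpG-rich sequence, the odds ratios against distal peaks were 0.979 for ETS and 0.765 for the GC box, and RUNX was at 0.480 against protein-coding promoters and 0.278 against flanks. RUNX gained calls against protein-coding promoters in 5 alternatives (1.55 to 2.26). For the CCAAT box, they were 1.02 against protein-coding promoters in 200 bp windows and in CpG-poor sequence, 1.07 against distal peaks in 50 bp windows and 1.03 against flanks at 1000 bp, while calls against protein-coding promoters arose with 1 TSS per gene (0.753), outside protein-coding genes (0.692) and in CpG-rich sequence (0.366). The cAMP response element was at 1.43 against protein-coding promoters in CpG-poor sequence. It gained calls in 50 bp windows (0.224) and outside protein-coding genes (0.404), and against flanks with 1 TSS per gene (4.04), at 2 kb (3.62) and with flanks at 5000 bp, where no flank window held it. The E-box against distal peaks was at 1.04 in 50 bp windows and above the median signal value. The control word at 500 bp was at 0.895 against distal peaks and 0.867 against flanks.

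For a neighbour within 5 kb, the odds ratio against protein-coding promoters was 1.19 above the median signal value, 1.25 with the top IDR score, 1.37 outside protein-coding genes and 1.25 after merging, none a call. Against distal peaks it was 0.990 outside protein-coding genes and 1.19 at 2 kb (adjusted exact p = 0.016). For signal above the list median it was 1.32 against protein-coding promoters in CpG-rich sequence, where the call was lost, and against distal peaks 0.959 at 500 bp, 0.957 in CpG-rich and 1.22 in CpG-poor sequence. Within the members, the odds ratio of CpG-rich against CpG-poor sequence for a summit within 200 bp was 1.13 at the 1 kb limit, 0.768 at 500 bp and 2.19 at 2 kb, a description with no test, since the limit itself sets the distances. The GC box by signal was at 1.02 with the top IDR score, and RUNX by distance at 1.05 with the top IDR score and 1.07 after merging.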
